A study of Mus musculus with 10 samples.

Results

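The endothelium, the cell layer that lines blood and lymph vessels, was read in embryonic mouse gallbladder through 10 genes: Kdr, Flt1, Tek, Tie1, Pecam1, Cdh5, Esam, Emcn, Eng and Lyve1. They were taken by name, and every probe set that maps to 1 of them alone was used, which gave 16 probe sets. A probe set is a group of short oligonucleotides on an Affymetrix array that together read a transcript. The 10 genes stand among 18193 genes that the arrays read by at least 1 such probe set. Of the 16 probe sets, 15 had a mean log2 signal at or above the filter of 4.82 and were tested. The other one, 1422047_at of Cdh5, averaged 4.53 and was not.

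The samples were dissected from mouse embryos at 15 days post coitum (dpc). The inbred strain C57BL/6 (B6) gave Sox17+/- and wild type gallbladders, and the outbred stock ICR gave wild type cystic ducts besides Sox17+/- and wild type gallbladders. Each of the 5 groups had 2 biological replicates, numbered 3 and 4 in B6 and 1 and 2 in ICR. Sox17 is a transcription factor made in endoderm and in endothelium, and the Sox17+/- embryos have 1 altered copy, whose kind the labels do not describe. No label says whether a sample pooled several embryos, and none gives a litter or an array batch, so p-values measure only the spread between these samples.

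Endothelial cells are defined by receptors for growth factors made by the tissue around them and by the proteins of their junctions. Kdr and Flt1 bind vascular endothelial growth factors. Tek binds angiopoietins and Tie1 modulates it. Pecam1, Cdh5 and Esam sit at the contacts between endothelial cells, Emcn and Eng at their surface, and Lyve1 binds hyaluronan on lymphatic endothelium, liver sinusoids and some macrophages. Sox17 and its relatives Sox7 and Sox18 act in endothelium, Sox17 above all in arteries, so the comparison asks whether the vessel content of the gallbladder, or the state of its vessels, differs when 1 copy of Sox17 is altered.

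Promoter windows of 300 bases, from 250 before to 50 after a RefSeq start site (GRCm38.p6), were at hand for 6 of the 10 genes: Kdr, Flt1, Tek, Tie1, Emcn and Eng. Those of Tek and Emcn are shown because these were the genes whose windows hold the core letters of SOX binding, ACAAT, on either strand. Capitals mark ACAAT or its complement ATTGT, and GGAA or its complement TTCC, the core letters of the ETS factors. In Tek, at chr4:94739039-94739338 on the plus strand, 2 SOX cores and 2 ETS cores were found, and a SOX core and an ETS core overlap. In Emcn, at chr3:137340828-137341127 on the plus strand, there were 1 SOX core and 6 ETS cores.
Tek: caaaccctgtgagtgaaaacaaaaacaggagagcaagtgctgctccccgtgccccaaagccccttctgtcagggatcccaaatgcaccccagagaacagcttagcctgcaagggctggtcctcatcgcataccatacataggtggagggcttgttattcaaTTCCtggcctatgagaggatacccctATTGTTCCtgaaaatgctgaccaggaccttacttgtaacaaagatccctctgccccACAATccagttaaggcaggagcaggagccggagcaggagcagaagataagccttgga
Emcn: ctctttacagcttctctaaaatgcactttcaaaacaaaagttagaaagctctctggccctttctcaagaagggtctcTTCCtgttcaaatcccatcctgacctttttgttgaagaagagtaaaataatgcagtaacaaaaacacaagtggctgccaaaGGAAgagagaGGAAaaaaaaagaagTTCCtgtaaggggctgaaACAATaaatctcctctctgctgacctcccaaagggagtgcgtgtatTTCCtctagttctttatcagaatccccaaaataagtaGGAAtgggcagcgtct
Among 32851 such windows of mouse genes, 31.0% hold ACAAT on either strand and 96.0% hold GGAA. The share of these genes with ACAAT, 2 of 6, is therefore close to that of all windows, and a match of letters is a description and not a site.

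Sox17 itself was lower in Sox17+/- gallbladder. Its probe set 1421657_a_at read 8.02 and 7.91 log2 in Sox17+/- and 9.29 and 9.04 in wild type gallbladder of B6, and 7.65 and 7.90 in Sox17+/- and 9.52 and 9.24 in wild type gallbladder of ICR. The groups did not overlap in either strain, and over both the Sox17+/- level was 37.8% of wild type (log2 change -1.40, SE 0.11, limma adjusted p = 0.00826 over all probe sets). The second probe set, 1429177_x_at, gave 34.7% (limma adjusted p = 0.00851). Taken alone, B6 did not pass (limma adjusted p = 0.153 and 0.169 on the probe sets) and ICR did (limma adjusted p = 0.0372 and 0.04). With array weights B6 passed (limma adjusted p = 0.023 on both) and ICR did not (0.169 on both). Both ICR calls were also lost with all 10 samples in the fit (limma adjusted p = 0.303) and with no trend (0.0556 and 0.0669). For 1429177_x_at the ICR call was lost with median centring (limma adjusted p = 0.125) and with the 50th percentile filter (0.055) too. Tested directly, B6 minus ICR, the Sox17 changes differed by 0.41 (SE 0.22) and 0.45 (SE 0.24) log2, neither of which passed (limma adjusted p = 0.811). No source used here says whether the alteration spares the bases these probes read. The calls over both strains depended on the fit: with the cystic duct samples included the limma adjusted p was 0.0697 and 0.0975, without 1 of the B6 samples it lay between 0.0534 and 0.0775, and blocking on replicate number ended that of 1421657_a_at (0.0555). The ICR calls were lost under that block (limma adjusted p = 0.128 and 0.0932) and without any 1 of 7 of the 8 gallbladder samples (0.0508 to 0.225).

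No endothelial probe set rose or fell in Sox17+/- gallbladder over both strains. Of the 15 tested, 0 passed limma with Benjamini-Hochberg adjustment over 24461 probe sets (threshold 0.05), 0 had an unadjusted p under 0.05, and the lowest adjusted p was 0.616. Over all probe sets 39 passed, a share of 0.159%, and 2424 had an unadjusted p under 0.05. The 15 changes ran from -0.16 to 0.23 log2, with 12 above 0 and a median of 0.12, against a median of -0.01 over all probe sets tested. Their standard errors ran from 0.08 to 0.29 log2. The 95% intervals of the 15 reached no lower than -0.52 and no higher than 0.82 log2, and a change inside them that did not pass does not show an equal level. In whole tissue, fewer cells of a type and less RNA per cell cannot be told apart.

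**Figure D1:**
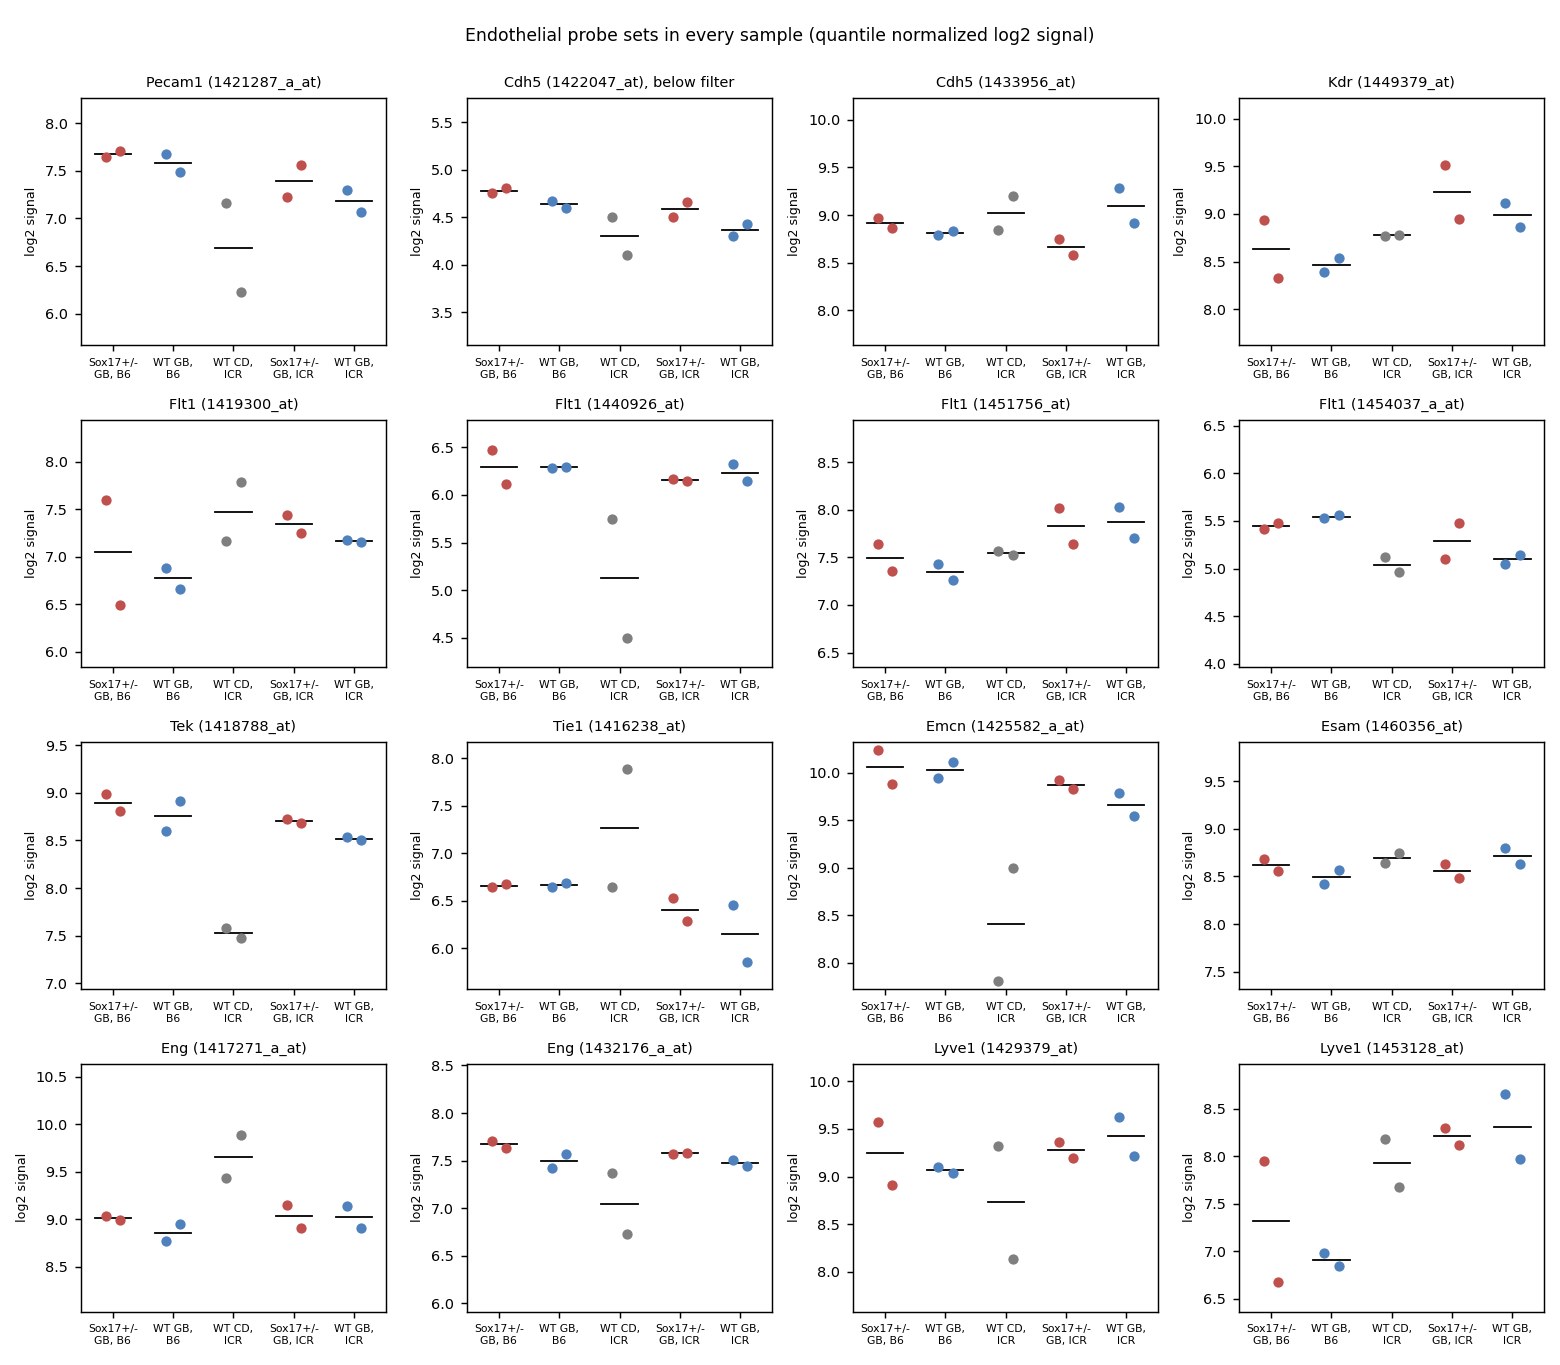
Quantile normalized log2 signal (vertical axis, 2.6 log2 units in each panel) of the 16 endothelial probe sets in the 5 groups, with a point per sample and a line at the mean of 2. GB is gallbladder and CD cystic duct. Red points, Sox17+/-, lie among or close to the blue points, wild type gallbladder, in most panels, while grey cystic duct points lie below all gallbladder points for Tek, Emcn, Flt1 1440926_at and Eng 1432176_a_at and above them for Eng 1417271_a_at.

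Neither receptor of vascular endothelial growth factors passed by genotype. Kdr (chr5:75932827-75979072, GRCm38.p6), the main signalling receptor, read 8.94 and 8.33 log2 in Sox17+/- and 8.39 and 8.54 in wild type gallbladder of B6. In ICR it read 9.51 and 8.95 in Sox17+/- and 9.12 and 8.86 in wild type gallbladder. The genotypes overlapped in both strains, and the change was 0.21 log2 (SE 0.18, 95% interval -0.21 to 0.63, limma adjusted p = 0.734). Flt1 (chr5:147561604-147726438), which also exists as a secreted decoy form, has 4 probe sets, and their changes were 0.23, -0.04, 0.06 and 0.05 log2, with limma adjusted p from 0.775 to 0.940. Its probe set 1419300_at had the largest change of all 15, and it read 7.60 and 6.49 in Sox17+/- and 6.89 and 6.66 in wild type gallbladder of B6, and 7.44 and 7.25 in Sox17+/- and 7.18 and 7.15 in wild type gallbladder of ICR. The B6 Sox17+/- pair lay on both sides of its wild type, and without replicate 3 of that pair the change over both strains was -0.05.

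Tek and Tie1, the receptors of the angiopoietin pathway, did not pass either. Tek (chr4:94739086-94874976), the receptor that keeps vessels quiescent, read 8.99 and 8.80 log2 in Sox17+/- and 8.60 and 8.92 in wild type gallbladder of B6. In ICR it read 8.72 and 8.68 in Sox17+/- and 8.53 and 8.50 in wild type gallbladder. The B6 groups overlapped, and the ICR groups did so as deposited but not after normalization. The change over both strains was 1.12-fold (95% interval 0.958 to 1.31, log2 0.16, SE 0.10, limma adjusted p = 0.619). Tie1 (chr4:118471191-118489849), its partner receptor, read 6.64 and 6.67 in Sox17+/- and 6.64 and 6.69 in wild type gallbladder of B6, and 6.53 and 6.28 in Sox17+/- and 6.46 and 5.85 in wild type gallbladder of ICR. It changed by 0.12 (SE 0.15, limma adjusted p = 0.819), and the groups overlapped in both strains.

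Of the 3 junction proteins, Pecam1 (chr11:106654213-106715281), a general marker of endothelium, read 7.65 and 7.70 log2 in Sox17+/- and 7.68 and 7.49 in wild type gallbladder of B6, and 7.22 and 7.57 in Sox17+/- and 7.30 and 7.07 in wild type gallbladder of ICR. It changed by 0.15 (SE 0.11, 95% interval -0.12 to 0.42, limma adjusted p = 0.698), and the genotypes overlapped in both strains. Cdh5 (chr8:104101613-104144504), the cadherin of endothelial junctions, had opposite signs in B6 and ICR. In B6 its probe set 1433956_at read 8.97 and 8.87 in Sox17+/- and 8.79 and 8.83 in wild type gallbladder, a change of 0.11 (SE 0.14, limma adjusted p = 1). In ICR it read 8.75 and 8.58 in Sox17+/- and 9.28 and 8.91 in wild type gallbladder, a change of -0.43 (SE 0.14, 95% interval -0.77 to -0.09) with an unadjusted p of 0.02 and a limma adjusted p of 0.336. That change was -0.25 without wild type replicate 1 of ICR, whose deposited median of 6.53 was the highest of the 10 samples (6.01 to 6.30 in the others), and -0.62 without wild type replicate 2. The test of that difference, B6 minus ICR, gave 0.54 log2 (SE 0.20, 95% interval 0.06 to 1.02, unadjusted p = 0.0329) and did not pass (limma adjusted p = 0.811). Without those samples in turn it was 0.35 and 0.72. Esam (chr9:37528089-37538319), a tight junction adhesion molecule, read 8.68 and 8.56 in Sox17+/- and 8.43 and 8.57 in wild type gallbladder of B6, and 8.64 and 8.48 in Sox17+/- and 8.80 and 8.63 in wild type gallbladder of ICR. Its groups overlapped in both strains, and its change over both was -0.02 (SE 0.09, 95% interval -0.22 to 0.18).

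Among the surface proteins, Emcn (chr3:137341062-137431069), a sialomucin of veins and capillaries, read 10.23 and 9.88 log2 in Sox17+/- and 9.94 and 10.11 in wild type gallbladder of B6, and 9.92 and 9.83 in Sox17+/- and 9.78 and 9.54 in wild type gallbladder of ICR. It changed by 0.12 (SE 0.10, limma adjusted p = 0.731). The genotypes overlapped in B6, and in ICR they did so as deposited but not after normalization. Eng (chr2:32646595-32682669), a coreceptor of the transforming growth factor beta family, has 2 probe sets, which changed by 0.08 (SE 0.09) and 0.14 (SE 0.08), with limma adjusted p of 0.813 and 0.616. The second of them, 1432176_a_at, was the only one of the 15 whose Sox17+/- samples lay above wild type without overlap in both strains. It read 7.70 and 7.64 in Sox17+/- and 7.43 and 7.57 in wild type gallbladder of B6, and 7.57 and 7.58 in Sox17+/- and 7.50 and 7.44 in wild type gallbladder of ICR. Of all probe sets tested, 3.9% were separated upwards in both strains in this way. On deposited values the ICR groups of Eng 1432176_a_at overlapped, at 7.60 and 7.58 in Sox17+/- and 7.78 and 7.45 in wild type gallbladder. Lyve1 (chr7:110850607-110862953) changed by 0.02 (SE 0.16) and 0.15 (SE 0.29) on its 2 probe sets.

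**Figure D2:**
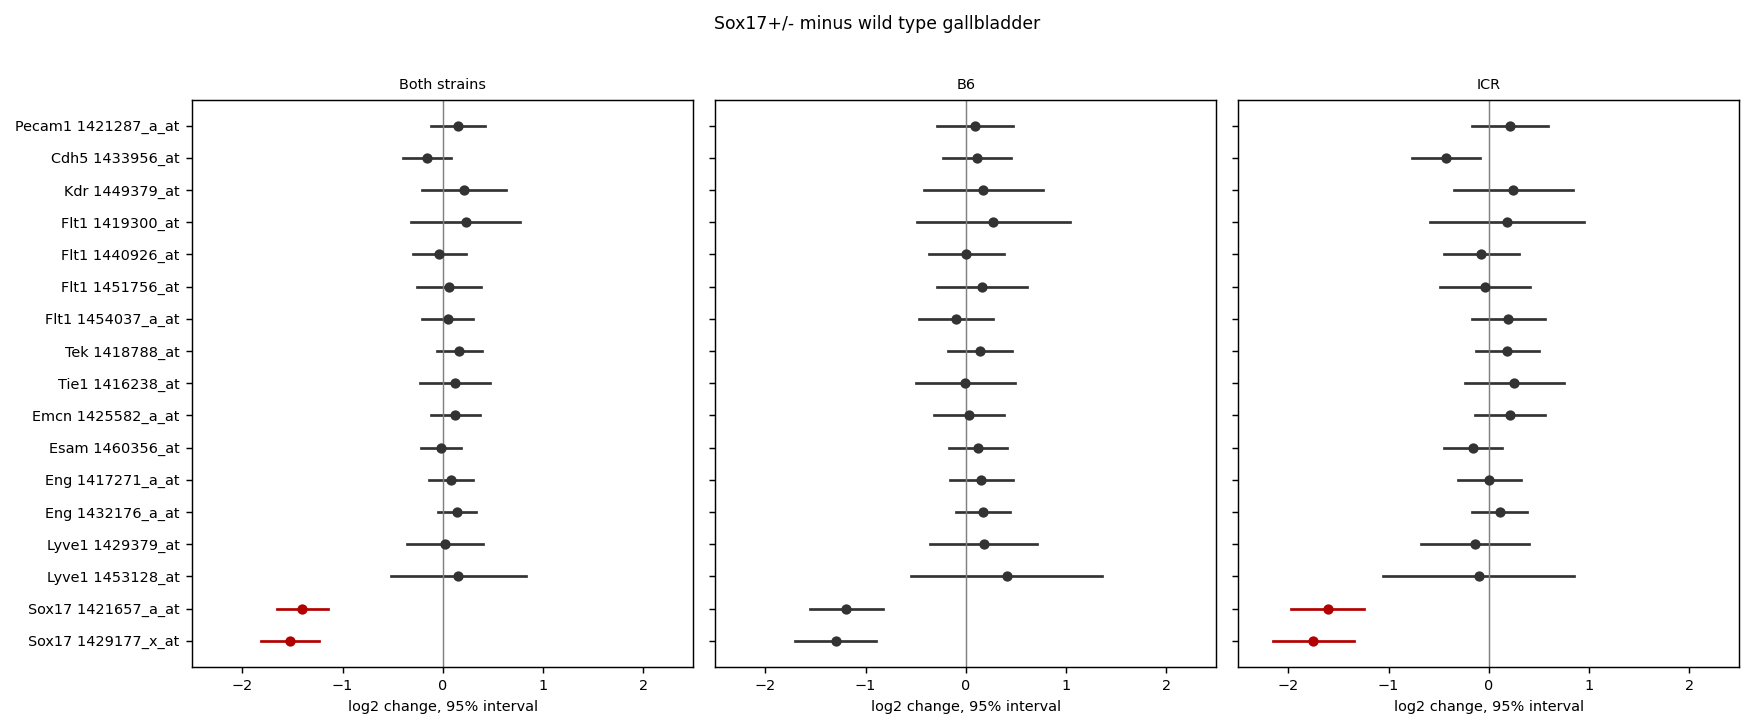
Log2 change of Sox17+/- against wild type gallbladder (horizontal axis) with its 95% interval, over both strains, in B6 and in ICR, for the 15 tested endothelial probe sets and the 2 of Sox17. Red marks values that passed limma with adjustment over all 24461 probe sets. The endothelial values lie between -0.16 and 0.23 over both strains, and those of Sox17 at -1.40 and -1.53.

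Taken by strain, 0 of the 15 passed in B6 and 0 in ICR. In B6 13 lay above 0, with a median of 0.14 log2, against a median near 0 over all probe sets, of which 3, or 0.0123%, passed. The largest B6 change was that of Lyve1 1453128_at, 0.41 (SE 0.40), from a Sox17+/- pair that stood 1.27 log2 apart. In ICR 9 lay above 0, with a median of 0.11 against -0.04 over all probe sets, of which 12, or 0.0491%, passed. The genotypes did not overlap for 4 of 15 probe sets in B6, where 42.1% of all probe sets were so separated, and for 5 of 15 in ICR, where the share was 37.5%. The difference of the genotype effects passed for 0 of 15 and for 0 of all 24461 probe sets (0% called, 1421 of them at an unadjusted p under 0.05).

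Transcripts of other tissues stood higher in several Sox17+/- samples. The mean log2 level of 8 skeletal muscle genes was 9.27 and 6.56 in Sox17+/- and 5.66 and 5.68 in wild type gallbladder of B6, and 6.72 and 6.15 in Sox17+/- and 5.86 and 5.98 in wild type gallbladder of ICR. All 8 lay above 0 over both strains (median 1.36, 6 at an unadjusted p under 0.05, 0 passing limma). That of 9 measured hepatocyte genes was 11.84 and 11.85 in Sox17+/- and 12.04 and 11.42 in wild type gallbladder of B6, and 12.26 and 11.57 in Sox17+/- and 10.45 and 10.30 in wild type gallbladder of ICR. The highest muscle sample, B6 Sox17+/- replicate 3, also had the highest mean of the 15 endothelial probe sets, 0.24 log2 above their own means over the 10 samples, while its partner stood at -0.09. Without it the median endothelial change was 0.04 log2 over both strains and 0.01 in B6. The part of muscle or liver tissue in the endothelial values was not tested.

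The wider lists of vessel genes held no call by genotype either. Each gene was read here by its brightest probe set, and over all 13887 genes so read 10 rose and 22 fell, or 0.230%. Over all probe sets the split was 11 higher and 28 lower, and without ICR wild type replicate 2 it turned to 898 higher and 151 lower. Of 28 further vascular genes 0 passed, 23 lay above 0, and the median was 0.16 log2, against a median near 0 over all genes. The regulators Lmo2 and Tal1, which blood cells also express, stood at 0.36 (SE 0.08, limma adjusted p = 0.189) and 0.91 (SE 0.32, limma adjusted p = 0.43). Beside them, the mean level of 6 erythroid genes was 9.01 and 9.98 in Sox17+/- and 8.71 and 8.91 in wild type gallbladder of B6, and 9.13 and 8.37 in Sox17+/- and 8.54 and 7.49 in wild type gallbladder of ICR. The part of blood in those values was not tested. Sox18, a relative of Sox17 in endothelium, stood at 0.57 (SE 0.20, limma adjusted p = 0.425), and Gata2 at 0.28.

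Arterial genes, where Sox17 is known to act, had a median of -0.01 log2 over 11 measured genes, with 0 passing and 2 at an unadjusted p under 0.05. Hey1, a Notch target of arteries, stood at -0.45 (SE 0.10, limma adjusted p = 0.189), with -0.46 in B6 and -0.44 in ICR. Efnb2, the ephrin that marks arteries, stood at -0.18, and the Notch ligand Dll4 at 0.15. The gap junction protein Gja4 stood at 0.10 in B6 and -0.45 in ICR, and the difference did not pass (0.54, SE 0.20, limma adjusted p = 0.811).

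Of 4 venous genes 0 passed, with a median of -0.08. Nrp2, a semaphorin and growth factor coreceptor of veins, lymphatics and other cells, was the nearest of these to the threshold at -0.48 (SE 0.08, limma adjusted p = 0.0902). The venous factor Nr2f2 stood at -0.02. The 5 measured lymphatic genes all lay above 0, with a median of 0.21 and 0 passing. Reln, a secreted protein of lymphatic endothelium, neurons and liver cells, stood at 1.36 (SE 0.22, limma adjusted p = 0.0887). The lymphatic receptor Flt4 stood at 0.21 and the lymphatic factor Prox1, which hepatocytes also express, at 0.30 (SE 0.21).

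Other lists stayed near 0 by their medians, with 0 genes passing in each. The 7 genes of liver sinusoids had a median of -0.02, with the mannose receptor Mrc1 at -0.26 (SE 0.07, limma adjusted p = 0.326). The 12 ligands and genes of sprouting vessels had a median of 0.03. Among them Esm1, a product of sprouting tip cells, stood at -0.60 (SE 0.15, limma adjusted p = 0.273), Angpt2 at 0.22 and Vegfa at 0.13. The 8 genes of mural cells, which wrap small vessels, had a median of 0.09, with the receptor Pdgfrb at 0.20, and 9 leukocyte genes one of 0.03.

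**Figure D3:**
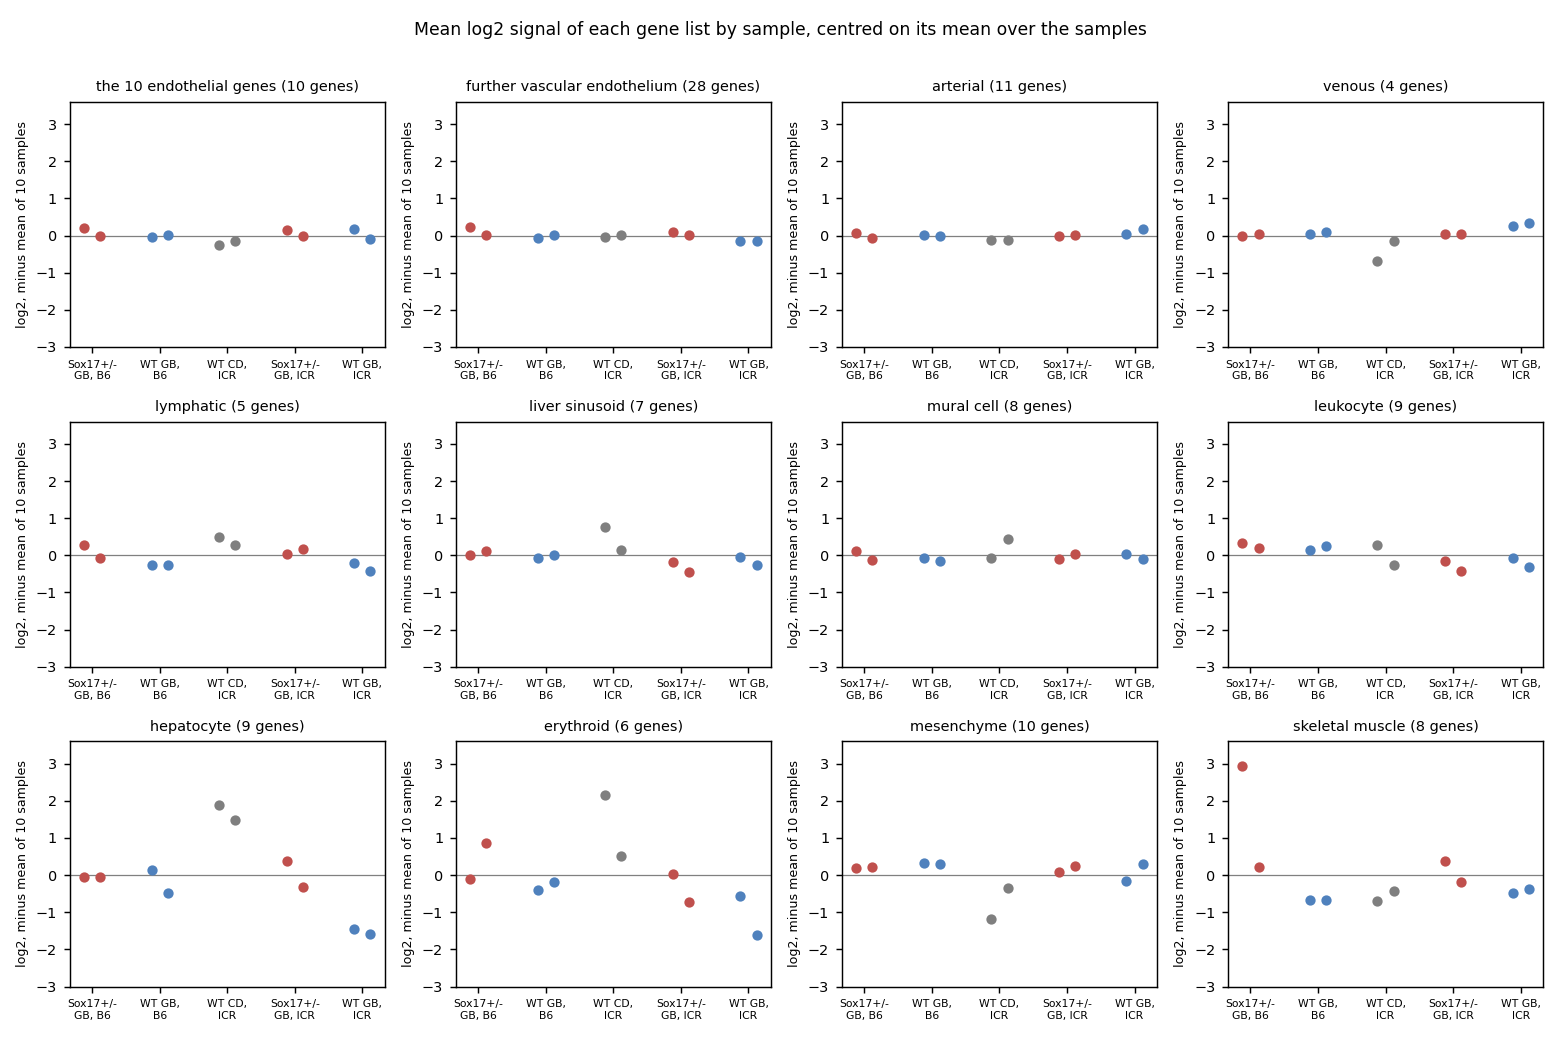
Mean log2 signal of each gene list in every sample, centred on its mean over the 10 samples (vertical axis, same scale in all panels), for the 5 groups. The endothelial and further vascular lists stay near 0, while skeletal muscle genes stand high in 1 B6 Sox17+/- sample and hepatocyte genes in both cystic duct samples.

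More probe sets passed by strain than by genotype. Lyve1 fell in B6 gallbladder on 1 of its 2 probe sets, and no other endothelial probe set passed. That probe set, 1453128_at, read 7.95 and 6.68 log2 in Sox17+/- and 6.98 and 6.84 in wild type gallbladder of B6, and 8.30 and 8.12 in Sox17+/- and 8.65 and 7.97 in wild type gallbladder of ICR. Every B6 gallbladder lay below every ICR gallbladder. The means were 7.11 in B6 and 8.26 in ICR, a 2.21-fold lower level in B6 (log2 -1.14, SE 0.29, limma adjusted p = 0.0377). The other probe set of Lyve1, 1429379_at, read 9.57 and 8.92 in Sox17+/- and 9.10 and 9.03 in wild type gallbladder of B6, and 9.37 and 9.20 in Sox17+/- and 9.63 and 9.22 in wild type gallbladder of ICR. There the strains overlapped, and the difference was -0.20 (SE 0.16, limma adjusted p = 0.441), so the fall is that of a probe set and not shown for the gene. The call rested on single samples: leaving out any 1 of 6 of the 8 gallbladder samples ended it. Over all 16 alternatives the limma adjusted p ran from 0.00603 to 0.127 and the difference from -1.46 to -0.83. The gap between the 3' and the 5' probe sets of Gapdh, which widens as RNA degrades, separated the strains too: it was 0.21 and 0.30 log2 in Sox17+/- and 0.00 and 0.16 in wild type gallbladder of B6, and 0.43 and 0.60 in Sox17+/- and 0.60 and 0.93 in wild type gallbladder of ICR. All 9 hepatocyte and all 6 erythroid genes measured lay above 0 by strain, with medians of 0.49 and 0.71 log2, and 1 of each list passed. The part of RNA quality, liver or blood in the strain differences was not tested.

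Over all probe sets 3811 differed by strain, or 15.6%, with 9.04% lower in B6, and of the 15 endothelial ones it was 1, lower. A further 6 had an unadjusted p under 0.05 without passing. Kdr averaged 8.55 in B6 and 9.11 in ICR (-0.56, SE 0.18, limma adjusted p = 0.0782). Tie1 averaged 6.66 in B6 and 6.28 in ICR (0.38, SE 0.15, limma adjusted p = 0.131), and Pecam1 7.63 in B6 and 7.29 in ICR (0.34, SE 0.11, limma adjusted p = 0.0898). Emcn stood at 0.28 (limma adjusted p = 0.124). Flt1 went both ways, with 1451756_at at -0.43 and 1454037_a_at at 0.31. The latter averaged 5.28 over the 10 samples, not far above the filter of 4.82. Compared within each genotype, the strains did not overlap for 6 of the 15 probe sets, against 30% of all probe sets. Of these 6, Pecam1, Tek and Tie1 stood higher in B6, and Kdr, Flt1 1451756_at and Lyve1 1453128_at lower. Across genotypes, Pecam1, Tek and Kdr did overlap between the strains. The median of the 15 was -0.02 log2, against 0.04 over all.

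Among the wider lists, 10.8% of all genes differed by strain. Of the 28 further vascular genes 2 rose in B6 and 2 fell: Vwf (0.64) and Adgrf5 (0.51) rose, and S1pr1 (-0.66) and Rhoj (-0.43) fell. The venous factor Nr2f2 fell to 10.39 in B6, against 11.39 in ICR (SE of the difference 0.07, limma adjusted p = 0.000631) and the apelin receptor Aplnr rose (0.49). Of the lymphatic genes Prox1 fell to 4.70 in B6, against 5.70 in ICR (SE of the difference 0.21, limma adjusted p = 0.0199) and Pdpn, also a gene of mesothelium, rose (0.80). Of the 8 genes of mural cells 1 rose and 1 fell, with 6 above 0, 2 below and a median of 0.09. The gene that fell was Rgs5, a marker of pericytes (-1.58). Of 9 leukocyte genes, whose cells can carry Lyve1, 4 rose and 0 fell, with the pan-leukocyte Ptprc at 1.10 (SE 0.09, limma adjusted p = 0.00106). These genes were named beyond the rule for lists, because they passed in this comparison.

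In wild type ICR embryos, Tek fell in cystic duct, which drains the gallbladder. It read 7.58 and 7.48 log2 in cystic duct and 8.53 and 8.50 in gallbladder, a change of -0.99 (SE 0.17, 95% interval -1.37 to -0.60). This is a 1.98-fold lower level in cystic duct (limma adjusted p = 0.0115). Both duct samples lay below all 8 gallbladder samples of either strain. Emcn read 7.81 and 9.00 in cystic duct and 9.78 and 9.54 in gallbladder, and its change of -1.25 (SE 0.34, 95% interval -2.04 to -0.47) did not pass (limma adjusted p = 0.0522). The 2 duct samples differed far more from each other than gallbladder pairs did: 6219 probe sets stood over 1 log2 apart, against 31 to 1094 in the gallbladder pairs, and 8 of the 15 endothelial ones over 0.5.

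**Figure D4:**
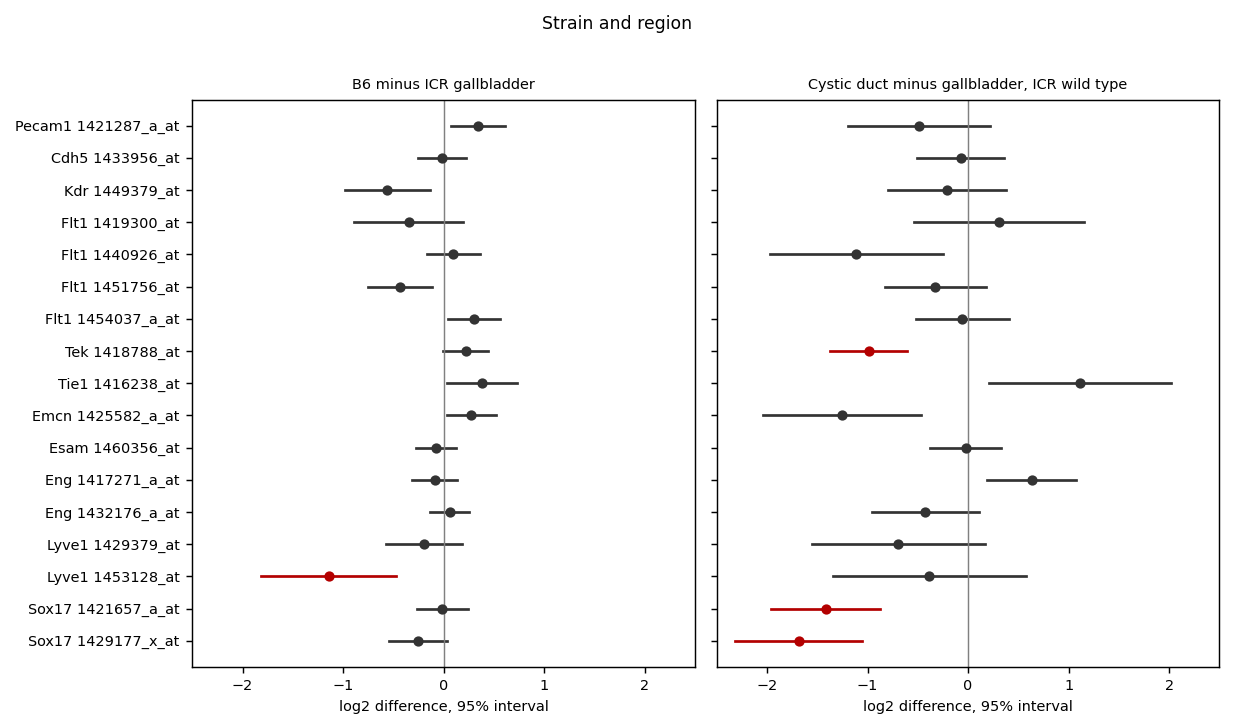
Log2 difference with its 95% interval (horizontal axis) for B6 against ICR gallbladder and for cystic duct against gallbladder of ICR wild type, over the same probe sets. Red marks values that passed limma: Lyve1 1453128_at at -1.14 by strain, Tek at -0.99 by region, and Sox17 at -1.42 and -1.69 by region.

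The receptors Tie1 and Tek stood on opposite sides in cystic duct. Tie1 read 6.65 and 7.88 in cystic duct and 6.46 and 5.85 in gallbladder (1.11, SE 0.39, limma adjusted p = 0.109). Both duct samples were above both gallbladders after normalization. As deposited, duct replicate 1 (6.789) lay just below gallbladder replicate 1 (6.799). The probe sets of Eng also disagreed. Eng 1417271_a_at read 9.43 and 9.89 in cystic duct and 9.13 and 8.91 in gallbladder (0.63, SE 0.19, limma adjusted p = 0.0725). Eng 1432176_a_at read 7.37 and 6.72 in cystic duct and 7.50 and 7.44 in gallbladder (-0.42, SE 0.23, limma adjusted p = 0.259). On deposited values the groups overlapped on both of these probe sets. The deposited values of duct replicate 2 had an interquartile range of 2.89 log2, against 3.51 to 3.90 in the other samples. Flt1 1440926_at read 5.74 and 4.50 in cystic duct and 6.32 and 6.14 in gallbladder (-1.11, SE 0.37, limma adjusted p = 0.0947).

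The junction genes Cdh5 and Esam stayed close, at -0.07 (SE 0.19) and -0.02 (SE 0.15). Cdh5 read 8.84 and 9.20 in cystic duct and 9.28 and 8.91 in gallbladder, and Esam 8.64 and 8.75 in cystic duct and 8.80 and 8.63 in gallbladder. Pecam1 read 7.16 and 6.23 in cystic duct and 7.30 and 7.07 in gallbladder (-0.49, SE 0.31, limma adjusted p = 0.313), Kdr stood at -0.21 and Lyve1 at -0.69 and -0.39. In all, 1 of 15 passed, against 11.1% of all probe sets (7.04% lower in cystic duct), 8 of 15 were separated, against 47.7%, and the median was -0.33 log2, against -0.06. That endothelial median was -0.63 on deposited and -0.47 on median-centred values, where all probe sets stood at -0.30 and -0.13, and it was -0.10 without cystic duct replicate 2 and -0.11 without gallbladder replicate 1. The endothelial median was -0.35 without cystic duct replicate 1, where all probe sets stood at -0.07. Without gallbladder replicate 1, 0 passed and Tek stood at -0.97 (limma adjusted p = 0.0641). Without cystic duct replicate 2 Tek and Emcn passed, with Emcn at -1.85. A fit of the 4 compared samples alone left Tek at an adjusted p of 0.291 by limma, and array weights at 0.417.

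Vessel genes of other lists moved in both directions in cystic duct, where 13.2% of all genes passed. With array weights, or with the 4 compared samples alone, 0 of all 24461 probe sets passed limma, so none of the calls by region given here, of vessel or other lists, held in those fits. Of 4 venous genes 3 fell, Aplnr (-1.19), Nrp2 (-1.01) and Nr2f2 (-0.71, SE 0.15, limma adjusted p = 0.0251). Of 11 arterial genes Efnb2 (-1.27, SE 0.14, limma adjusted p = 0.0037) and the Notch target Hey2 (-1.42) fell and Dll4 rose (1.20). Vwf, the clotting protein stored by endothelium, fell (-1.94, SE 0.30, limma adjusted p = 0.00825), and the blood and vessel regulators Tal1 (2.85) and Gata2 (1.18) rose. Of 7 genes of liver sinusoids, Stab2 (1.42) and Gpr182 (1.79) rose and Mrc1 fell (-0.70), and the lymphatic list held 1 riser, Reln (2.79).

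Liver and blood transcripts stood high in the same cystic duct samples. The mean level of the 9 hepatocyte genes was 13.79 and 13.38 in cystic duct and 10.45 and 10.30 in gallbladder, with 8 of 9 passing upwards and a median of 3.52 log2. The 6 erythroid genes averaged 11.26 and 9.62 in cystic duct and 8.54 and 7.49 in gallbladder, and 4 of them rose. Of 10 mesenchyme genes 6 fell. The 3' to 5' gap of Gapdh was 0.92 and 0.31 log2 in cystic duct and 0.60 and 0.93 in gallbladder. The part of liver, blood or RNA quality in the vessel genes was not tested.

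Averaged over the 15 probe sets, each centred on its own mean, the endothelial level was 0.24 and -0.09 log2 in Sox17+/- and -0.07 and -0.04 in wild type gallbladder of B6. In ICR it was -0.17 and -0.23 in cystic duct, 0.17 and 0.05 in Sox17+/- gallbladder and 0.19 and -0.06 in wild type gallbladder. The genotypes overlapped in both strains, and both duct samples were below every gallbladder. Genes outside the list were ranked by likeness to the endothelial mean across the 10 samples, which share their normalization. Predicted and numbered gene models were left out. The first was Procr, the endothelial receptor of protein C (Pearson r = 0.923, and 0.949 over the 8 gallbladders). Pex3, Pdlim2, Anxa3, Lmcd1 and Myl4 followed with r from 0.898 to 0.918. Klf2, a factor that endothelium raises under flow, was the tenth (r = 0.860). These were picked as the highest of all genes so ranked, so their r describes the choice.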

How the data were processed

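Total RNA was taken from 10 samples with Trizol and hybridized as biotinylated cRNA to Affymetrix arrays, per the labels' protocols. The authors deposited 1 log2 signal per probe set and sample. The scale is not stated and was read from the values, which ran from 2.20 to 15.15. How background and scale were set is not given in the sources used here. Stage and genotype stand under each other's tags in the labels, and the values were used.

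The arrays held 45101 probe sets, among them 64 controls, which were not used. The platform table gives a single gene for 34945, several genes for 932 and no gene for 9160. Of the first, 34741 were found in the RefSeq gene table (GRCm38.p6) and 204 were not. The deposited medians of single-gene probe sets ran from 6.01 to 6.53, so samples were quantile normalized. Probe sets under the 30th percentile of mean signal (4.82 log2) were left out, and 24461 of 13887 genes were each tested on their own. Where a probe set lies in its transcript is not given in the sources used here.

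Limma 3.58.1 in R 4.3.3 fitted the group means, with a trend in the prior variance and Benjamini-Hochberg adjustment over all probe sets. Genotype and strain were tested on the 8 gallbladder samples and cystic duct on all 10. Steps were tested on simulated data. The alternatives were the deposited values, median centring, other filters, 1 probe set a gene, no trend, array weights, other sample sets, a replicate block and leaving out each sample. The number of arrays limits the precision. The endothelial genes and the lists were chosen with earlier results of these data known. Named were all endothelial and Sox17 probe sets, up to 4 genes of a list by the smallest p over both strains, and the 10 genes most like the endothelial mean. Genes named for strain or region were chosen after their values were seen. Sequences are from RefSeq. Figures used Python 3.11.15, pandas 2.3.3 and matplotlib 3.10.9.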

Additional observations from a re-analysis of the deposited data

How the results depend on the processing

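The endothelial count of calls by genotype was 0 in B6, in ICR, over both and for their difference, under each of the alternatives, 68 values in all. In the main fit 0.159% of all probe sets passed over both strains, 0.0491% in ICR, 0.0123% in B6 and 0% for the difference. Some alternatives had more calls over all probe sets and some fewer, as given below. Where shares are this low, a count of 0 in so short a list says little about whether its levels changed. No endothelial value reversed with a call. Uncalled changes crossed 0 in 20 of 248 values over both strains, 13 in B6, 11 in ICR and 18 for the difference of strains. Many of the 248 could not cross 0. Dropping the trend, weighting arrays, adding the cystic duct samples, blocking on replicate number or moving the filter left each change as it was. Within a strain, so did leaving out a sample of the other strain. The share that crossed is therefore higher among the values that could move. The median of the endothelial changes ran from 0.02 to 0.16 log2 over both strains, 0.01 to 0.21 in B6 and -0.05 to 0.14 in ICR. Unnormalized, as deposited, all probe sets had a median of -0.18 in ICR, 0.16 for the difference of strains and -0.30 in cystic duct, and with median centring -0.13 in cystic duct.

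By strain the endothelial count of 1 was 0 with 1 probe set a gene or with all 10 samples. With the replicate block it was 3 of 15, where 5264 of all 24461 probe sets passed. It also changed when single samples were left out. In cystic duct the count of 1 was 0 with array weights or the 4 compared samples, and it changed when single samples were left out. It was 2 (Tek and Emcn) with deposited or median-centred values, the 50th percentile filter or 1 probe set a gene. Emcn then stood at -1.60, -1.43, -1.25 and -1.25 log2.

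Over all probe sets, the count over both strains (39) was 67 as deposited, 62 with no filter, 63 with 1 probe set a gene and 2 with all 10 samples. Without single samples it ran from 4 (without B6 wild type replicate 3) to 1049 (without ICR wild type replicate 2). The ICR count (12) was 38 as deposited, 19 with 1 probe set a gene, 1 with array weights and 1 with all 10 samples, and 1 to 1152 without single samples. The B6 count (3) was 5 with 1 probe set a gene, 43 with array weights and 1 with all 10 samples, and 0 to 8 without single samples. The difference of strains (0) was 0 to 860, the last without ICR wild type replicate 2. The strain count (3811) was 1194 with 1 probe set a gene and 1418 with all 10 samples, and 1513 to 5137 without single samples. The cystic duct count (2726, of which 1003 higher and 1723 lower) was 0 with array weights and 0 with the 4 compared samples, and 804 to 11757 without single samples, the last without duct replicate 1. Its split was 332 higher and 2331 lower as deposited and 666 higher and 1911 lower with median centring. The cause of these changes was not tested. A sample left alone in its group is assumed to vary like the others.

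The labels give same-numbered samples only a number in common and do not say whether they were paired. Their deviations correlated at 0.31 in B6 and 0.39 in ICR gallbladders, and at 0.07 between cystic duct and either ICR gallbladder group. Whether they share a litter or batch was not tested. With the replicate number as a block, 0 probe sets passed in B6, 1 in ICR and 14 over both. By strain 5264 of all 24461 passed under that block, and 3 of the 15 endothelial ones did (Tie1, Flt1 and Lyve1). The block also ended the calls of Sox17 in ICR and of its 1421657_a_at over both strains.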
